A study of Mus musculus with 12 samples.

Results

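Chd7 is an ATP-dependent chromatin remodeller, and the genes described here are those that the authors' deposited binding lists name as bound by Chd7 in oligodendrocytes but not in their precursors. All 1462 symbols of that list were taken, and 1101 of them were found by name in a table of RNA counts for 14107 genes of O4-positive mouse cells. The other 361 are not in the count table. The lists hold no positions and no binding strength, and the rule that assigned a bound site to a gene, like the cells used for binding, is not stated in the labels or files.

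Oligodendrocytes are the cells that wrap axons in myelin. They arise from dividing precursors that leave the cell cycle, extend processes and then switch on genes for myelin proteins and lipids. Remodellers of the CHD family use ATP to move nucleosomes, which changes how open the DNA at promoters and enhancers is to transcription factors such as Sox10 and Olig2. A gene assigned to a bound site need not be controlled by it.

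RNA was sequenced from cells of cortex and corpus callosum of mouse pups at postnatal day 7, sorted with magnetic beads and an antibody to O4, a surface antigen of late precursors and immature oligodendrocytes. The 7 Control libraries were labelled Chd7flox/flox, a genotype label that names no Cre. The 5 Chd7iKO libraries were labelled PDGFRaCre; Chd7flox/flox, with a Cre named for the Pdgfra gene of oligodendrocyte precursors. Pups of either genotype were given tamoxifen subcutaneously at 20 mg/ml, first 40 µl on day 1 after birth and then 30 µl on day 4. No group was labelled as having Cre with intact Chd7 alleles, which means that, as the labels stand, effects of Cre and of the deletion cannot be told apart. How many pups a library pools is not stated, and the p-values rest on the spread among libraries, part of which may be technical.

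To show what lies in front of genes of this list, the 250 bases upstream of the RefSeq start (GRCm38.p6) are printed for 7 members. Iqsec3 and Dhh are among the 3 largest rises described below, and Scel is the largest fall. Enpp6, Gucy1b2 and Cadm4, which fell, and Bub1b, which rose, were chosen after motif matches were seen. Windows that run into the gene's own annotated transcript by more than 30 bases were not printed, Esr1, Fstl5 and Susd5 among them. Capitals mark matches on either strand to ACAAAG or ACAATG, the core letters bound by Sox factors, and to CAGCTG or CATATG, E-box letters bound by factors of the Olig type, none of which overlap in these windows. CATTGT is ACAATG read on the opposite strand.
Iqsec3, chr6:121473679-121473928, minus strand: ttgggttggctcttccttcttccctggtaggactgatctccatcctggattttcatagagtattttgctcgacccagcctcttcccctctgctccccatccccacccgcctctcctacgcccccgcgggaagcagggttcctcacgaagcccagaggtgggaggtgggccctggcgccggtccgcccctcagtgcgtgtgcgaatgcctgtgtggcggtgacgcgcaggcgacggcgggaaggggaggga
Dhh, chr15:98898541-98898790, minus strand: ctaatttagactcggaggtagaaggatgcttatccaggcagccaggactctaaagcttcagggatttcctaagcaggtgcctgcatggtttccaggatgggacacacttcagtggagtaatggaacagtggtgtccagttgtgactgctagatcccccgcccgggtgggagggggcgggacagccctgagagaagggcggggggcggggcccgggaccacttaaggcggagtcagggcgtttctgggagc
Bub1b, chr2:118597961-118598210, plus strand: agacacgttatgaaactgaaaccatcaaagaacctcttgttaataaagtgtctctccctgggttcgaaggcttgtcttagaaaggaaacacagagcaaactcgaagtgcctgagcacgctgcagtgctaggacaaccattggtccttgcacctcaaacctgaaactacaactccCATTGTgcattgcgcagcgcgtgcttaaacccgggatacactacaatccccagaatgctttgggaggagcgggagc
Scel, chr14:103513091-103513340, plus strand: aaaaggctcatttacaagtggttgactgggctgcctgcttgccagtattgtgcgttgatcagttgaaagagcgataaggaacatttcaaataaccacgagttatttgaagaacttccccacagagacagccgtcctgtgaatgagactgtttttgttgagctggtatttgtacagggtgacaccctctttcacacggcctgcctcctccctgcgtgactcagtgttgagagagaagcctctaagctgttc
Gucy1b2, chr14:62456290-62456539, minus strand: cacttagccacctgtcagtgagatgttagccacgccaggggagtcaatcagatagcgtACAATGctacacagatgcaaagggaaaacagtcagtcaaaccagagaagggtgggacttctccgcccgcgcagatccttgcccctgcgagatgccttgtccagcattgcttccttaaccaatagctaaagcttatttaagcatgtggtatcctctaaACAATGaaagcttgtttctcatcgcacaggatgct
Enpp6, chr8:46986637-46986886, plus strand: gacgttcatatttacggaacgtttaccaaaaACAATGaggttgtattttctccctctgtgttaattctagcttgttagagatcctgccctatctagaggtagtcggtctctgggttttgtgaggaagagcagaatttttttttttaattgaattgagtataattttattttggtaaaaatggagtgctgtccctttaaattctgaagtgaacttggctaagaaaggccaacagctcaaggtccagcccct
Cadm4, chr7:24481773-24482022, plus strand: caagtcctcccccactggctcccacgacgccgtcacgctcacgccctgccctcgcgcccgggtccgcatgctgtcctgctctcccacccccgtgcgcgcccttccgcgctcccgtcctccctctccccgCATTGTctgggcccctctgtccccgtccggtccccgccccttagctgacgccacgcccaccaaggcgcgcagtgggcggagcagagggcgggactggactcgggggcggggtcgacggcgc
Matches were about as frequent in the promoters of these genes as in those of all measured genes. Of the 1101 measured members, 850 matched a RefSeq promoter, and ACAAAG was found in 12% of their windows against 11.8% over the 10733 promoters of all measured genes and 16.5% over all 27025 promoters of the table. For ACAATG the shares were 5.06% in members, 6.01% in measured genes and 11% in the whole table, and for CAGCTG 11.6%, 11.6% and 12.8%. CATATG was rare, at 1.06%, 1.40% and 3.47%. The median GC content of the windows was 60.0% both in members and in all measured genes. A match is a string of letters and not a binding site.

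The libraries held 30384507 to 35512310 estimated counts each, and the members took 6.94% to 7.24% of all counts in every library. Levels are given as CPM, counts scaled by TMM to a common library total, and differences as log2 changes, the log2 of the fold change of Chd7iKO against Control. The Chd7 transcript itself averaged 236 ± 30.9 CPM over the 7 Controls and 242 ± 28.9 CPM over the 5 Chd7iKO libraries (± SD, as in all means below), with no difference beyond the spread (p = 0.760 by an exact permutation test, two-sided, over 792 splits). Since these values sum over the whole gene, they do not check the deletion. Controls 3 and 6 stood apart from the other controls in Esr1, described below, and whether their genotype labels hold was not tested. Markers of other cells were present: summed endothelial and mural markers (32 genes, 19 higher in Chd7iKO, none listed at 0) reached 2039 to 2722 CPM in Control and 2257 to 3186 CPM in Chd7iKO, highest in Chd7iKO 4 and 5. Summed microglia markers (24 genes, 16 higher, none at 0) reached 391 to 885 CPM in Control and 761 to 993 CPM in Chd7iKO. The vascular list includes Cspg4, which also stands on the list of precursor markers used below, so that the vascular sum can hold RNA of precursors. None of the vascular markers and 1 of the microglia markers, P2ry12, is a member. In such bulk samples fewer cells of a type and less RNA per cell cannot be told apart.

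Members changed about as often as other genes did. Of the 1101 measured members, 183 were higher (16.6%) and 156 lower (14.2%) in Chd7iKO cells by edgeR's quasi-likelihood test at an adjusted p under 0.05, where 29.5% of all 14107 genes passed in either direction, 15.8% higher and 13.8% lower. Together 339 members passed (30.8%), against 29.5% of genes on none of the Chd7 lists at the same mean expression, of which 16.4% were higher and 13.1% lower. The members' share is thus near the background. With library totals in place of TMM the split was 216 higher and 121 lower (30.6% of members, 28.8% of unlisted genes). In that setting the median log2 fold change was 0.042 in members and 0.033 over all genes. Leaving out Controls 3 and 6 gave 185 higher and 170 lower (32.2% of members, 30.1% of unlisted genes). Leaving out Chd7iKO 4 and 5 gave 68 higher and 71 lower (12.6% of members, 11.9% of unlisted genes).

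Changes were also of the usual size. The median log2 fold change over all measured members was 0.011, with quartiles of -0.14 and 0.22, and over all genes 0.001. Among called members the median absolute log2 fold change was 0.40, and 0.42 among all called genes. At least 2-fold differences were seen for 23 higher and 2 lower members, where 1.94% and 0.262% of all genes were so called. In 64 members every Chd7iKO library lay above every Control and in 68 every one lay below, where 6.20% and 6.32% of all genes did so. Rises therefore reached larger sizes than falls in members as in the whole table.

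The genes that Chd7 bound at other stages gave other counts. Of 1699 measured genes bound at both stages, 220 were higher (12.9%) and 403 lower (23.7%), and of 3855 bound in precursors only, 505 were higher (13.1%) and 495 lower (12.8%). Unlisted genes at the same expression gave 14.4% higher and 14.9% lower for genes bound at both stages. For genes bound in precursors only they gave 15.5% and 14.0%. The difference between the lists was not tested. Members had a median level of 31.6 CPM, below the 65.1 CPM of genes bound at both stages, and spanned a median of 57.7 kb of the genome (1079 with an annotated span), against 25.3 kb over all genes, 23.3 kb for genes bound in precursors only and 92.9 kb for genes bound at both stages.

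**Figure D1:**
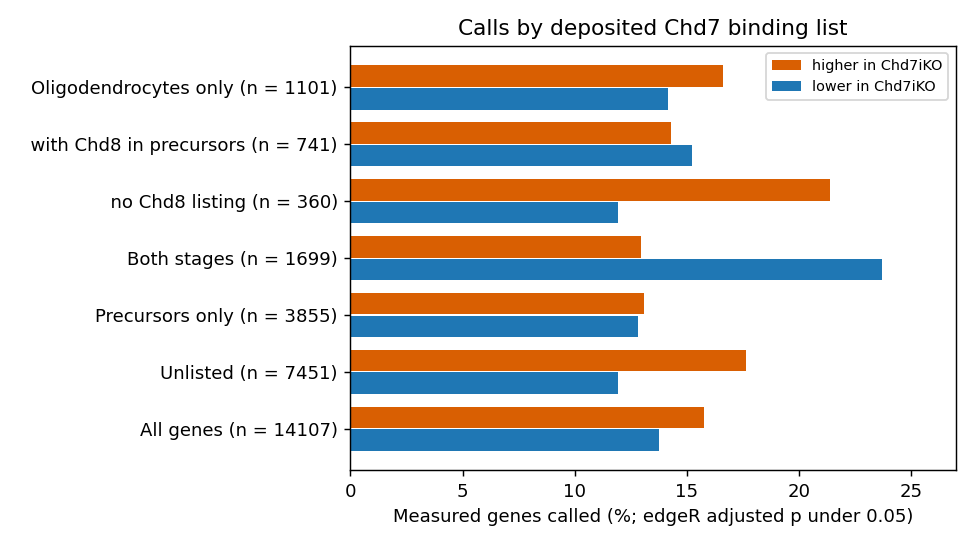
Share of measured genes called higher (orange) or lower (blue) in Chd7iKO at an edgeR adjusted p under 0.05, in percent, by deposited binding list, with the number of measured genes beside each name. The bars of genes bound in oligodendrocytes only (16.6% and 14.2%) are close to those of all genes (15.8% and 13.8%), while genes bound at both stages have the longest lower bar (23.7%).

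Many listed genes left no value. The 361 listed genes outside the count table (24.7%) compare with 93 of 1792 (5.19%) for genes bound at both stages and 371 of 4226 (8.78%) for genes bound in precursors only. They include 12 olfactory receptor genes (Olfr), 4 vomeronasal receptors (Vmn), 4 alpha interferons (Ifna), 4 Tdpoz genes, 7 genes of interleukins or their receptors (Il), 35 predicted genes (Gm) and 47 RIKEN genes. Olfactory and vomeronasal receptors serve smell in sensory neurons, and alpha interferons are antiviral signals. The count table starts at a mean of 0.618 CPM, so that genes below that level cannot be described.

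Among members the shares of rises and falls varied with abundance. When all genes were cut into 10 equal groups by mean CPM, 25.7% of the 109 members in the second group (2.91 to 7.09 CPM) were higher and 3.67% lower. In the highest group (163 CPM and above), 7 of 82 members were higher (8.54%) and 22 lower (26.8%). Among unlisted genes of the highest group 11.9% were higher and 17.2% lower, and of the second group 25.6% and 7.09%. In the eighth group the share of falls was 16.0% in members and 20.5% in unlisted genes. The differences between members and unlisted genes were not tested.

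**Figure D2:**
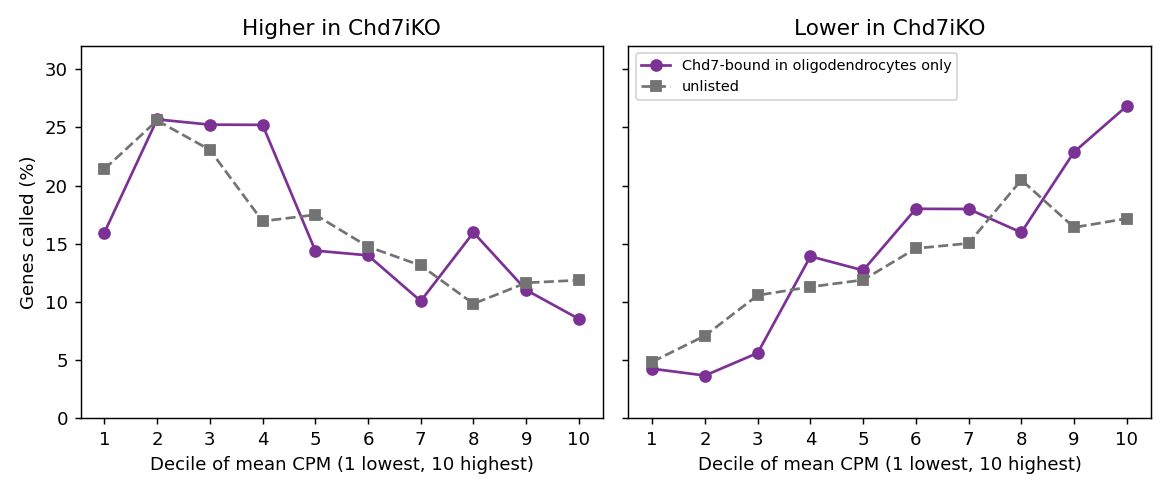
Percent of genes called higher (left) and lower (right) in Chd7iKO in each of 10 equal groups by mean CPM, for the members (purple circles) and for genes on no Chd7 list (grey squares). Among members the share of falls went from 4.26% in the lowest group to 26.8% in the highest, and among unlisted genes from 4.85% to 17.2%, with the highest value (20.5%) in the eighth group.

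A second deposited list divides the members by the related remodeller Chd8. Of the 1462 genes, 811 are listed as bound by Chd8 without Chd7 in precursors, and 741 of these were measured. They had a median of 44.2 CPM, and 106 were higher (14.3%) and 113 lower (15.2%), near the 15.4% and 14.1% of unlisted genes at the same expression. The 651 genes without that Chd8 listing were less often measured (360) and had a median of 14.4 CPM. Of these 360, 77 were higher (21.4%) and 43 lower (11.9%), where unlisted genes of like expression gave 18.6% and 11.1%. Without Chd7iKO 4 and 5 the counts were 25 higher and 22 lower of the 360, and 43 and 49 of the 741. In that setting all 14107 genes gave 908 higher and 839 lower. The difference between genes with and without the Chd8 listing was not tested.

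Esr1, the gene of estrogen receptor alpha (chr10:4611593-5005614), had the largest rise of the members. Its Chd7iKO libraries stood at 161, 170, 171, 138 and 142 CPM. Control 3 had 81.7 and Control 6 had 44.7 CPM, while Controls 1, 2, 4, 5 and 7 had 0.532, 0.868, 1.26, 0.721 and 0.847 CPM. The groups did not overlap, but the controls formed no single group. The log2 change came to 3.06 (SE 1.04, edgeR adjusted p = 0.0401), and to 7.52 (SE 0.15) without Controls 3 and 6. With each library left out in turn it was 2.85 to 4.24, the highest without Control 3. The call was lost, at adjusted p = 0.0520 to 0.0712, without any 1 of Controls 2, 4, 5 and 7 or of the 5 Chd7iKO libraries, and at 0.117 without Chd7iKO 4 and 5. Tamoxifen-activated forms of Cre carry part of an estrogen receptor. The labels do not name the form used, and whether any transgene reads were counted as Esr1 was not tested.

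Iqsec3 (chr6:121372933-121473678), a guanine nucleotide exchange factor for Arf proteins at inhibitory synapses, had 29.2, 20.6, 23.8, 21.8 and 26.0 CPM in Chd7iKO. Its controls ran from 2.2 to 8.12 CPM with a median of 4.29, and the 2 highest were again Controls 3 and 6 (8.12 and 7.79). Every Chd7iKO library was above every control (log2 change 2.37, SE 0.29, edgeR adjusted p = 1.03e-04). Controls 3 and 6 were the 2 controls nearest to Chd7iKO in 13 of the 183 higher members (7.10%), where 11% of all higher genes showed this order. The order was seen in 28 of the 156 lower members (17.9%) and 14.8% of all lower genes. Among rises of at least 2-fold it was seen in 5 of 23 members (21.7%) and 29.3% of all genes.

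Dhh, the desert hedgehog ligand (chr15:98891152-98898540), which peripheral Schwann cells release, had 3.23, 6.38, 5.13, 8.02 and 10.2 CPM in Chd7iKO and 0.488 to 3.43 CPM in Control (median 0.871). Chd7iKO 1 lay just below Control 6, and the other 4 lay above every control (log2 change 2.34, SE 0.41, edgeR adjusted p = 0.00112). Prrg4 (chr2:104830741-104849876), a membrane protein with a vitamin K-dependent Gla domain, had 5.64, 3.92, 4.15, 3.45 and 5.82 CPM against 0.511 to 1.84 in Control (median 0.930). Those groups did not overlap (log2 change 2.14, SE 0.29, edgeR adjusted p = 1.90e-04).

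Vim, the intermediate filament vimentin (chr2:13573927-13582826), was the most abundant of the large rises. It had 468, 507, 507, 564 and 675 CPM in Chd7iKO and 151 to 318 CPM in Control (median 189). Groups did not overlap, and the mean went from 210 ± 57.1 to 544 ± 80.6 CPM (log2 change 1.38, SE 0.16, edgeR adjusted p = 8.71e-05). Vimentin is made in precursors and also in astrocytes, vessels and microglia. The part of the higher vascular and microglial markers in its rise was not tested.

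Adamts3 (chr5:89677087-89883334), a secreted metalloprotease that processes procollagen and VEGF-C, stood at 98.2, 84.5, 85.5, 73.7 and 97.2 CPM against 18.6 to 43.0 CPM in Control (median 27.1), with no overlap (log2 change 1.61, SE 0.15, edgeR adjusted p = 2.2e-05). Sema3a (chr5:13125414-13602565), a repulsive guidance cue for axons and precursors, had 11.4, 12.1, 7.24, 12 and 17.2 CPM against 2.85 to 7.17 CPM (median 3.44). Its lowest Chd7iKO library only just cleared Control 6 (log2 change 1.53, SE 0.25, edgeR adjusted p = 6.50e-04). The other large rises were Ddx60, an RNA helicase of the antiviral response (1.51, SE 0.19), Itpripl1 (1.36, SE 0.20), the imprinted noncoding RNA H19 (1.19, SE 0.20), the zinc finger gene Bnc2 (1.17, SE 0.30) and the aminopeptidase Anpep (1.15, SE 0.25). In Bnc2 and Anpep the call was lost without Chd7iKO 4 and 5 (edgeR adjusted p = 0.0915 and 0.0747). Leaving out these libraries also took the calls over all genes from 2224 higher and 1943 lower to 908 and 839.

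The largest falls were smaller than the largest rises. Fstl5, a secreted follistatin-like protein (chr3:76074270-76710019), fell in a narrow band, with 51.1, 47.3, 48.4, 55.0 and 49.1 CPM in Chd7iKO against 87.0 to 111 CPM in Control (median 102). The groups lay far apart (log2 change -1.02, SE 0.069, edgeR adjusted p = 4.01e-06). Scel (chr14:103513342-103612797), which encodes sciellin, a precursor of the cornified envelope of skin, had the largest log2 fold change of the falls (-1.20, SE 0.19, edgeR adjusted p = 6.50e-04) at a low level, from 6.92 ± 1.44 to 3.02 ± 0.862 CPM.

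Omg, oligodendrocyte myelin glycoprotein (chr11:79500982-79504084), which restrains axon growth through the Nogo receptor, had 144, 126, 132, 122 and 115 CPM in Chd7iKO and 214 to 275 CPM in Control (median 240). Every Chd7iKO library was below every control (log2 change -0.92, SE 0.074, edgeR adjusted p = 8.07e-06). Susd5, a sushi domain protein and marker of precursors (chr9:114057140-114098728), fell from 23.1 ± 4.08 to 11.7 ± 0.961 CPM (log2 change -0.98, SE 0.12). The other large falls were Fbp1, the gluconeogenic fructose bisphosphatase (-0.88, SE 0.13), Kcnmb2, a subunit of calcium-activated potassium channels (-0.88, SE 0.20), Ryr3, a ryanodine receptor that releases stored calcium (-0.87, SE 0.18), and Gucy1b2, a subunit of soluble guanylate cyclase (-0.86, SE 0.21). Rit2, a neuronal GTPase (-0.81, SE 0.13), Chodl, a lectin-like membrane protein (-0.80, SE 0.16), Sphkap, an anchor of protein kinase A (-0.79, SE 0.16), and the aggrecanase Adamts5 (-0.79, SE 0.12) followed. In Gucy1b2 the call was lost without Chd7iKO 4 and 5 (adjusted p = 0.0879).

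**Figure D3:**
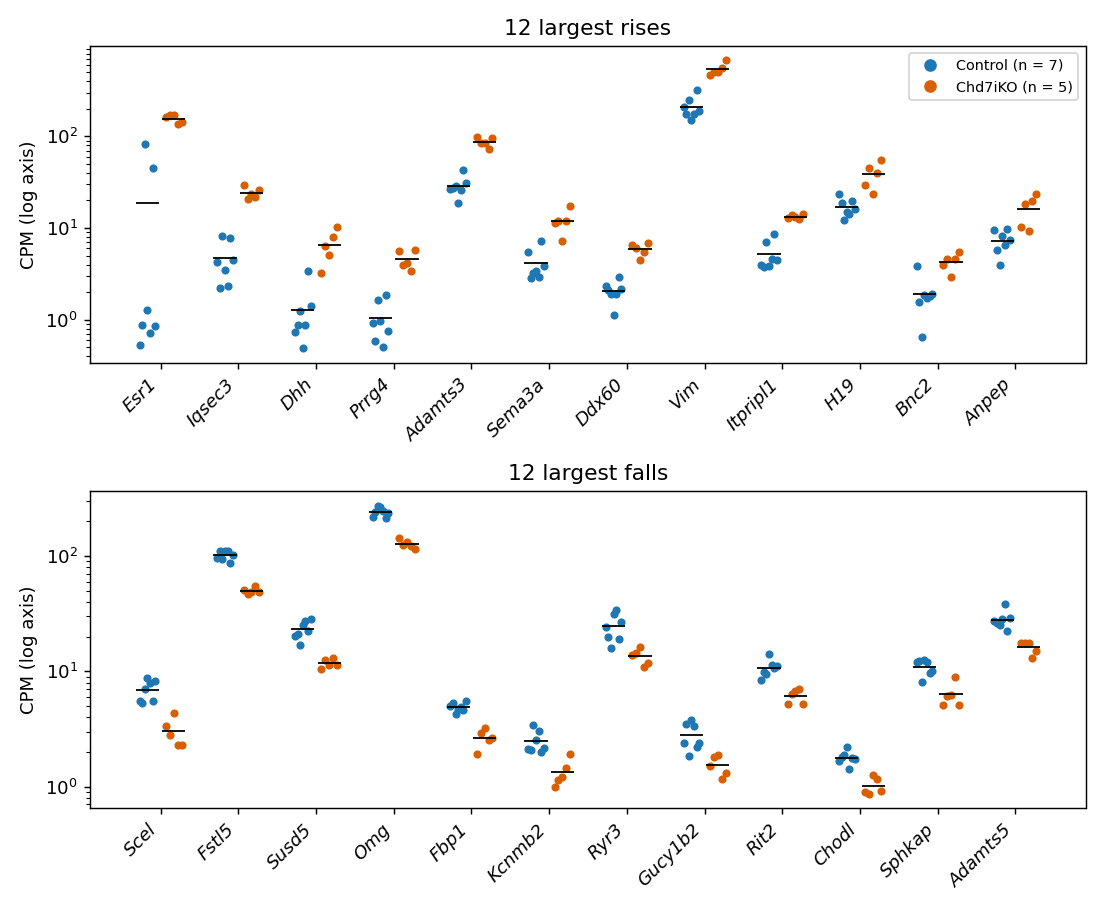
CPM on a log axis in each Control (blue, n = 7) and Chd7iKO library (orange, n = 5) for the 12 largest rises (top) and 12 largest falls (bottom) among called members with a mean of at least 1 CPM; black lines are group means. Esr1 controls split into 2 high libraries (81.7 and 44.7 CPM) and 5 low ones (0.532 to 1.26 CPM), and in Fstl5 and Omg all Chd7iKO points lie below all Control points.

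Genes that oligodendrocytes use to make myelin lipids were lower among the members. Of 5 measured members on a list of myelin lipid and cholesterol genes, 3 fell and none rose, while the list as a whole had 8 falls and 1 rise in 51. Enpp2, autotaxin, a secreted enzyme that makes lysophosphatidic acid and aids process growth (chr15:54838901-54952892), had 408, 440, 402, 432 and 417 CPM in Chd7iKO against 586 to 743 CPM in Control (median 689). No library crossed between the groups (log2 change -0.70, SE 0.057, edgeR adjusted p = 8.07e-06). Fa2h, which adds the hydroxyl group to fatty acids of myelin galactolipids (chr8:111345135-111393824), had 44.9, 54.4, 54.5, 58.8 and 42.3 CPM against 68.5 to 82.6 CPM (median 75.9), again with no overlap (log2 change -0.57, SE 0.083, edgeR adjusted p = 3.13e-04).

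Enpp6, a choline phosphodiesterase that marks newly forming oligodendrocytes (chr8:46986887-47096762), had 170, 178, 158, 190 and 135 CPM against 192 to 286 CPM in Control (median 241). The highest Chd7iKO library lay just below the lowest control (log2 change -0.54, SE 0.097, edgeR adjusted p = 0.00135). The sterol regulator Srebf2 (log2 change -0.07) did not pass the test. These 3 calls held without Controls 3 and 6 and without Chd7iKO 4 and 5.

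Of 4 measured members on a list of myelin protein genes, Omg fell and 3 did not pass the test. The whole list of 25 had 3 rises and 6 falls. Nfasc, neurofascin, which anchors myelin at the node and paranode, had 923, 948, 927, 1007 and 893 CPM in Chd7iKO within a Control range of 627 to 1378 CPM (median 999; log2 change -0.10, edgeR adjusted p = 0.645). Gjc3, the connexin of 29 kDa, gave -0.14 (adjusted p = 0.368). Mobp, a late structural myelin protein named after its values were seen, had 15, 27.5, 15.6, 30.3 and 43.3 CPM in Chd7iKO and 5.40 to 24.5 CPM in Control (median 10.7). Those groups overlapped (log2 change 0.98, SE 0.41, edgeR adjusted p = 0.0866, or 0.0455 with limma voom). None of the 55 measured lineage transcription factors on a second list is a member, so that Sox10, Olig2 and Myrf are not among these genes.

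On a list of precursor and committed oligodendrocyte markers, 3 of 6 members fell and 1 rose, where 26 of all 40 measured genes fell and 3 rose. Susd5 and Enpp6 are described above, and Tmem163, a zinc transporter, fell from 132 ± 7.98 to 105 ± 13.6 CPM (log2 change -0.33, SE 0.075, edgeR adjusted p = 0.00592). The rise was in Tnc, tenascin C, a matrix protein that holds back differentiation of precursors (chr4:63959785-64047015), with 170, 155, 155, 144 and 171 CPM against 72.7 to 133 CPM in Control (median 77.7). Its groups did not overlap (log2 change 0.79, SE 0.15, edgeR adjusted p = 0.00183). Nkd1 (0.28) and Cnksr3 (-0.06) did not pass.

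**Figure D4:**
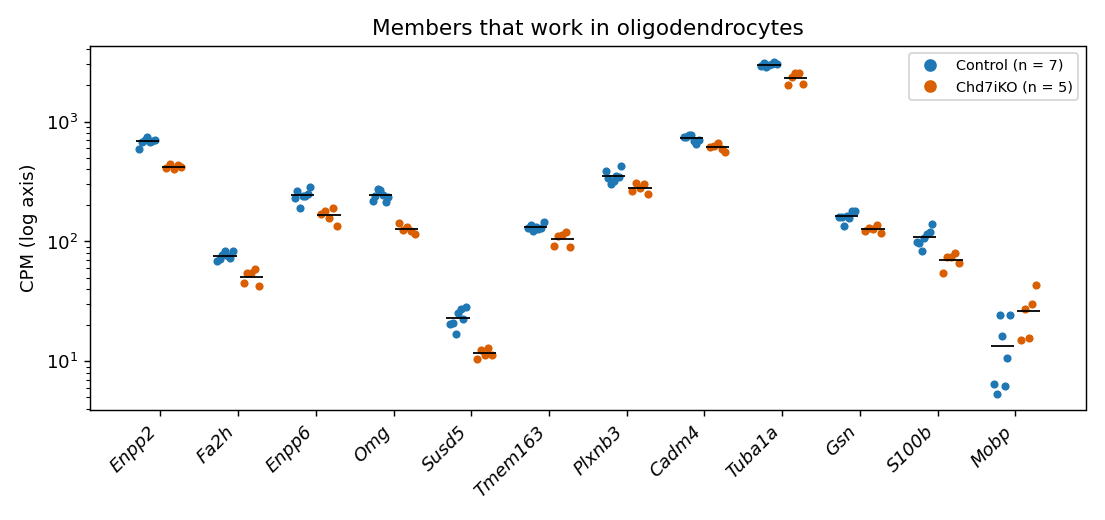
CPM on a log axis in each Control (blue, n = 7) and Chd7iKO library (orange, n = 5), with black lines for group means. The 12 members, with roles in oligodendrocytes, were picked by hand, and all but Mobp were called lower. Members with such roles that rose, Tnc (log2 change 0.79), Anln (0.82) and Camk2b (0.99), are not shown. The uncalled Nfasc, Gjc3 and Erbb3 are not shown either. Enpp2, Fa2h, Enpp6, Omg and Susd5 have all Chd7iKO libraries below all controls, while those of Mobp overlap with controls (5.40 to 24.5 CPM).

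The most abundant member was Tuba1a, an alpha tubulin of growing processes (chr15:98949837-98953703). It had 2029, 2363, 2563, 2551 and 2043 CPM in Chd7iKO against 2845 to 3110 CPM in Control (median 3001), and the groups did not overlap (log2 change -0.37, SE 0.070, edgeR adjusted p = 0.00191). Near-identical alpha tubulin genes may share reads with it. Cadm4, an adhesion molecule through which oligodendrocytes contact axons, fell from 724 ± 44.8 to 610 ± 37.3 CPM (-0.25, SE 0.057, adjusted p = 0.00628). The elongation factor Eef2 (0.09), Maged1 (-0.12) and Nfasc did not pass, and the call of Dpysl3, a microtubule-binding protein of growth cones (-0.17, adjusted p = 0.0414), was lost at 0.0521 to 0.0906 without any 1 of 10 libraries, Controls 1 and 3 being the exceptions.

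Among cytoskeleton and process growth genes, 3 of 12 members fell and 1 rose, against 18 and 14 of 94 on the whole list. Beside Tuba1a, the actin-severing protein gelsolin (Gsn) fell from 162 ± 15.9 to 127 ± 6.88 CPM (log2 change -0.36, SE 0.069, edgeR adjusted p = 0.00213). The kinase Pak3 fell slightly (-0.19, adjusted p = 0.0234), a call lost at 0.0666 to 0.0713 without Chd7iKO 2 or Chd7iKO 5. The rise was in Anln, anillin, which works in the contractile ring of dividing cells and at myelin septins. It had 41.0, 44.5, 42.1, 45.9 and 45.9 CPM against 19.4 to 32.6 CPM in Control (median 22.9), with no overlap (log2 change 0.82, SE 0.12, edgeR adjusted p = 2.44e-04).

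All 4 members on a list of cell cycle genes rose, where 71 of 76 genes of that list rose. They were Anln, the spindle checkpoint kinase Bub1b (46.9 ± 9.57 to 74.9 ± 6.83 CPM, log2 change 0.68, SE 0.12), Rfc4, which loads the replication clamp (15.5 ± 4.21 to 24.9 ± 4.39 CPM, 0.68, SE 0.18), and the retinoblastoma gene Rb1, which restrains entry into S phase (88.0 ± 5.21 to 97.8 ± 4.57 CPM, 0.15, SE 0.050). The small rise of Rb1 (edgeR adjusted p = 0.0349) lost its call without any 1 of 7 libraries, at 0.0539 to 0.112, and Rfc4 lost its own without Chd7iKO 4 and 5 (0.111). Of genes that promote cell death, Bcl2l11, the BH3 protein Bim (chr2:128126038-128162547), had 17.1, 14.6, 15, 14.8 and 16.7 CPM against 9.87 to 13.4 CPM in Control (median 11.7). The groups did not overlap (log2 change 0.42, SE 0.084, edgeR adjusted p = 0.00278). It was the 1 member on the list of p53 targets, of which 26 of 37 rose. The TNF receptor Tnfrsf1a rose from 61.7 ± 4.67 to 75.3 ± 1.52 CPM (0.29, SE 0.055), so that 2 of 5 members on the list of apoptosis genes rose, against 15 of 37 overall.

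Of 10 members on the list of growth factor and kinase signalling, 3 rose and none fell (8 rose and 7 fell of 61 in all). The ERK inhibitor Spry2 (0.31, adjusted p = 0.0389) and the ephrin receptor Ephb1 (0.28, adjusted p = 0.0243) were near the threshold, and Spry2 lost its call without any 1 of 8 libraries (0.0526 to 0.0969), Ephb1 without Chd7iKO 2 or 5 (0.0528 to 0.0557). The receptors Erbb3 (0.03), Fgfr1 (0.08) and Met (0.46) did not pass. No call of this list was left without Chd7iKO 4 and 5.

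In the Wnt, BMP and Notch list 3 of 7 members rose and none fell, against 14 and 5 of 60. Smad3, a signal transducer of TGF-beta and activin (chr9:63646767-63757994), had 112, 93.6, 90.4, 89.9 and 98.2 CPM against 47.2 to 79.4 CPM in Control (median 57.6). All Chd7iKO libraries were above all controls (log2 change 0.69, SE 0.11, edgeR adjusted p = 5.11e-04). The hedgehog transducer Smo (0.23, adjusted p = 0.0215) and the BMP transducer Smad5 (0.17, adjusted p = 0.0492) were close to the threshold, and Smad5 lost its call without any 1 of 9 libraries (0.0567 to 0.113), Smo without Chd7iKO 2 or 5 (0.0616 to 0.0662).

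Of 13 members on the list of adhesion and guidance genes, 3 rose and 2 fell, where the whole list had 14 rises and 43 falls in 107. Beside Sema3a, the netrin receptor Unc5b rose from 13.7 to 26.7 CPM on average (log2 change 0.96, edgeR adjusted p = 0.0202) and the semaphorin receptor Plxnd1 from 47.2 ± 9.59 to 75.2 ± 7.09 CPM (0.67, SE 0.12). Plxnb3, a plexin of oligodendrocytes, fell from 354 ± 43.1 to 280 ± 26.0 CPM (-0.34, SE 0.086, adjusted p = 0.0103), like Cadm4 above. Without Chd7iKO 4 and 5 both of these falls missed the threshold (adjusted p = 0.0612 and 0.0825), as did Unc5b (0.219), which also lost its call without Chd7iKO 5 alone (0.0724).

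The 9 collagen genes among the members, grouped after the values were seen, had a median log2 fold change of 0.74, with 5 rises and 2 falls. Col12a1, a collagen of fibril surfaces (chr9:79598991-79718831), had 51.8, 55.9, 43.3, 60.8 and 89.3 CPM against 20.0 to 35.7 CPM in Control (median 27.3), with no overlap and its highest value in Chd7iKO 5 (log2 change 1.11, SE 0.18, edgeR adjusted p = 6.71e-04). Col15a1, a collagen of vessel basement membranes (1.01), Col13a1 (1.09), Col14a1 (0.81) and Col25a1 (0.74) rose from low levels, and Col11a2 (-0.48) and Col24a1 (-0.56) fell. Without Chd7iKO 4 and 5, which had the highest summed endothelial and mural markers (2895 and 3186 CPM), Col12a1 alone kept its call and the median was 0.59. In that setting the calls over all genes went from 2224 higher and 1943 lower to 908 and 839. The basement membrane chain Lamb1 (0.93, adjusted p = 0.0440) and the collagen receptor Ddr2 (0.98, adjusted p = 0.0222) also rose. Lamb1 lost its call without any 1 of 9 libraries (0.0535 to 0.125) and without Chd7iKO 4 and 5 (0.354), and Ddr2 lost its own without Chd7iKO 5 (0.0652) and without Chd7iKO 4 and 5 (0.105). With single libraries left out, Col13a1 lost its call without any 1 of 9 (0.0585 to 0.109), Col24a1 of 7 (0.0522 to 0.0689) and Col14a1 of 6 (0.0548 to 0.121). Of the other 31 measured collagen genes of the table, 14 were higher (45.2%) and 2 lower (6.45%). The part of vascular cells in these rises was not tested.

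**Figure D5:**
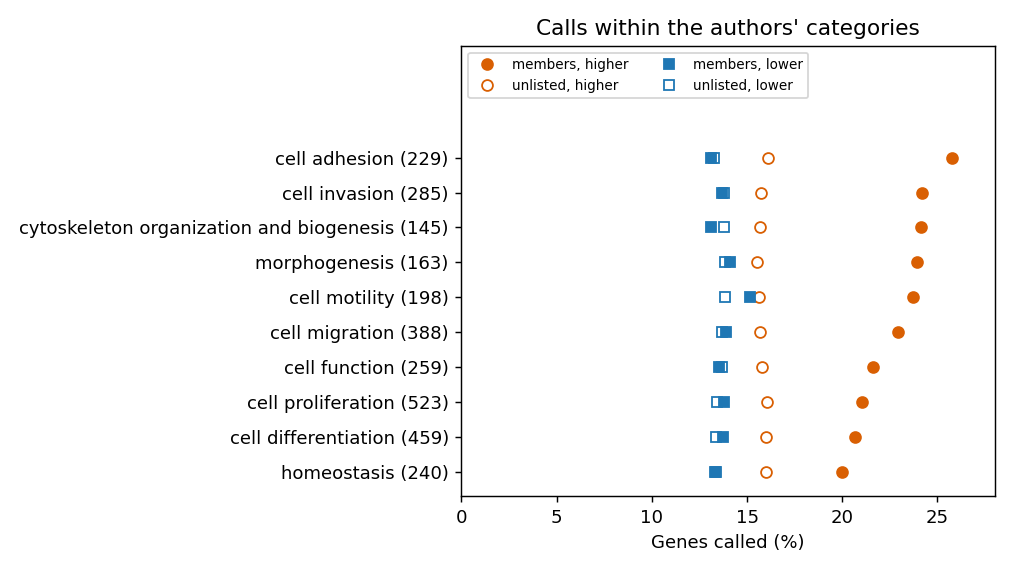
Percent of members called higher (filled orange) or lower (filled blue) within each of 10 functional categories that the authors deposited for these genes, with measured members in brackets; open symbols give unlisted genes of any function at the same expression. Cell adhesion has the highest share of rises (25.8%) and homeostasis the lowest (20.0%), against 15.5% to 16.1% in unlisted genes.

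The authors' deposited ontology sheet sorts genes of this list into 10 overlapping categories, in human symbols. In each of them rises outnumbered falls, as they did among unlisted genes at the same expression and among all genes (15.8% higher and 13.8% lower). For cell adhesion the unlisted shares were 16.1% higher and 13.3% lower, and for homeostasis 16.0% and 13.4%. Of 229 measured members filed under cell adhesion, 59 were higher (25.8%) and 30 lower (13.1%), and of 145 filed under the cytoskeleton, 35 were higher and 19 lower. Cell migration (388 members) had 89 and 54, motility (198) had 47 and 30, invasion (285) had 69 and 39, and morphogenesis (163) had 39 and 23. For differentiation (459) the counts were 95 and 63, for proliferation (523) 110 and 72, for homeostasis (240) 48 and 32, and for cell function (259) 56 and 35. Over all categories, 138 of 694 members were higher (19.9%) and 95 lower (13.7%), while the 407 members in no category had 45 (11.1%) and 61 (15%). Unlisted genes were not sorted into these categories, so that the comparison genes are of any function, and the difference was not tested. Without Chd7iKO 4 and 5 cell adhesion had 16 rises and 13 falls in 229, where all 14107 genes had 908 and 839.

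Ion channel genes among the members fell where they passed the test. Of 13 members on a list of ion channels and transmitter receptors 6 fell and none rose, against 31 falls and 7 rises in 80, and the median of the 13 was -0.29. Cacna2d3, an auxiliary subunit of calcium channels (chr14:28904943-29721864), had 14.7, 12.3, 13.2, 11.3 and 11.1 CPM against 15 to 25.8 CPM in Control (median 19.6), just without overlap (log2 change -0.63, SE 0.14, edgeR adjusted p = 0.00442). Cacnb4, a beta subunit (-0.31, SE 0.067), Ano4 of the anoctamin family (-0.36, SE 0.093), Ryr3, the potassium channel Kcnma1 (-0.37, adjusted p = 0.0415) and the store calcium sensor Stim1 (-0.23, adjusted p = 0.0234) also fell. Kcnma1 lost its call without any 1 of 9 libraries (0.0526 to 0.105) and Stim1 without any 1 of Chd7iKO 2, 3 and 5 (0.0547 to 0.0658). Leaving out Chd7iKO 4 and 5 kept 2 of these falls, and leaving out Controls 3 and 6 gave 7 falls and 1 rise.

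Among marker lists of other cells, S100b, a calcium-binding protein of astrocytes and maturing oligodendrocytes (chr10:76253853-76261159), fell. It had 54.9, 74.0, 73.7, 79.5 and 66.2 CPM against 83.1 to 140 CPM in Control (median 107), with no overlap (log2 change -0.64, SE 0.12, edgeR adjusted p = 0.00180), whereas the 22 astrocyte markers had 1 rise and 1 fall in all. Dcx, doublecortin of young neurons, which is also found in precursors, had 312, 313, 341, 341 and 301 CPM against 384 to 528 CPM (median 466), again with no overlap (-0.50, SE 0.076, edgeR adjusted p = 4.39e-04). It was the 1 call among 4 members on the neuron list, of which 4 of 24 fell and 1 rose. Summed neuron markers, Dcx included, were 1738 to 1965 CPM in Control and 1541 to 1805 CPM in Chd7iKO. P2ry12 of microglia did not pass (0.34, adjusted p = 0.399), but did among replicates 1 to 5 of both groups (0.82, edgeR adjusted p = 9.79e-04). None of the 6 chromatin genes among the members passed, Hdac1 (0.08) and Chd5 (-0.25) included, where 9 of 99 on that list rose and 7 fell. No immediate early gene is a member; of the 23 measured, 11 rose.

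A further member was picked out after its values were seen. Camk2b, the beta chain of a calmodulin-dependent kinase that shapes the actin of oligodendrocyte processes (chr11:5969644-6066362), had 112, 91.1, 105, 95.6 and 102 CPM against 44.3 to 65.3 CPM in Control (median 49.0). The groups were well apart (log2 change 0.99, SE 0.088, edgeR adjusted p = 1.57e-05). Of 5 Adamts proteases, Adamts3 and Adamts2 (0.85, edgeR adjusted p = 0.0279) rose, Adamts5 fell, and Adamts12 (0.55) and Adamts19 (0.71) did not pass. Adamts2 lost its call without any 1 of 5 libraries (0.0505 to 0.0845), without Controls 3 and 6 (0.0762) and without Chd7iKO 4 and 5 (0.221), a setting in which Adamts19 was called (1.12, edgeR adjusted p = 0.00671).

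Of 20 name stems with at least 5 measured members, 3 more were picked after their values were seen, and their counts stand beside 15.8% of all genes higher and 13.8% lower. Of 29 zinc finger genes named Zfp, 6 fell (20.7%) and none rose, where 9.01% of all 344 measured Zfp genes were lower and 3.20% higher. Zfp365 had 152, 154, 145, 145 and 123 CPM in Chd7iKO and 175 to 221 CPM in Control (log2 change -0.45, SE 0.064, edgeR adjusted p = 2.99e-04). Of 15 Tmem genes 4 fell and none rose, against 38 and 15 of all 198, Tmem9 among them (109 ± 7.93 to 83.0 ± 3.05 CPM, -0.39). Of 18 solute carriers 4 rose and 2 fell, against 38 and 49 of all 264, led by the potassium chloride cotransporter Slc12a7 (23.4 ± 5.53 to 35.0 ± 3.08 CPM, 0.58), whose call was lost without Chd7iKO 4 and 5 (0.0563).

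The authors' list of genes linked to autism risk names 18 of the members, of which 17 were measured. Of these, 6 were higher (35.3%) and 1 was lower (5.88%), where 15.8% and 13.8% of all genes were, and the median log2 change over the 17 was 0.10. Of the other 152 measured genes of that risk list, 13 were higher (8.55%) and 20 lower (13.2%), and the difference was not tested. Among the rises were Tnc and Col25a1, described above, Prim2, a primase subunit (0.32, edgeR adjusted p = 0.0189), the forkhead factor Foxp1 (0.39, adjusted p = 0.0294) and Cubn, the endocytic receptor cubilin (0.94, adjusted p = 0.00157). The fall was in Cacna2d3. Foxp1 lost its call without any 1 of 4 libraries (0.0556 to 0.103) and Prim2 without Chd7iKO 3 (0.0517). Without Chd7iKO 4 and 5 the calls of Tnc and Cubn remained, 2 rises and no fall.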

How the data were processed

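RNA of 7 Control and 5 Chd7iKO libraries was examined, grouped by their titles and genotype labels. Libraries were made with a stranded mRNA kit, per the labels' protocols. Per the submitters' processing notes, the tools were Bowtie, TopHat2, featureCounts and edgeR (no versions or roles) and the build mm10, while the gene annotation is not stated. Unscaled estimated counts for each gene are what the authors deposited, of which 2973 values (1.76%) were not whole, so that reads of near-identical genes may be shared. Beside the counts stand the p-values and log2 fold changes that the authors deposited, which call 3719 genes, 313 of them members, and 288 members were called in both. The authors also deposited gene lists with no values.

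Counts were rounded and fitted over all 14107 genes with edgeR 4.0.16 (R 4.3.3), using TMM scaling, its expression filter, which removed no gene, and the two-sided quasi-likelihood F-test without covariates, p adjusted over all genes by Benjamini-Hochberg, and a threshold of 0.05. CPM were computed after TMM scaling. The SE of a log2 change in the edgeR fit was taken as its absolute size divided by the square root of the F statistic. Among 31 pairs of libraries of 1 group, chi-square per degree of freedom was at least 9.14, so that each library counted as 1 replicate. Unlisted genes were set beside members within 10 equal groups of mean CPM. Gene positions are from the GENCODE mouse annotation on GRCm38, the assembly of mm10. DESeq2 1.42.0, limma 3.58.1 (voom), other scalings, filters and thresholds, a replicate block and leaving out libraries were tried. The code was tested on simulated data.

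The members, 18 gene lists and tests were chosen with earlier results of these data known. Named genes are Chd7, called members with the 12 largest rises and the 12 largest falls at a mean of at least 1 CPM, the 6 highest means and up to 4 called members of each list by smallest adjusted p. Predicted and RIKEN genes were left out, and a few genes under the rule are not reported here. Genes named outside this rule were chosen after their values were seen. The rule for printed promoters named the 3 largest rises and 3 largest falls, and 3 of these 6 were printed together with 4 others.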

Additional observations from a re-analysis of the deposited data

Results flagged for a closer look

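Among 182 groups of named genes checked, 10 had a library whose gap to its nearest neighbour was a large part of the group's range by Dixon's criterion, which chance alone passes in about 1 in 20 groups. The ratio of gap to range is given for each. In 4 genes that rose, the library that stood apart was the highest of the controls. Dhh had 3.43 CPM in Control 6 and 0.488 to 1.40 in the other controls (0.690), and Col13a1 had 1.79 CPM in Control 6 against 0.465 to 0.749 (0.785). Bnc2 had 3.89 CPM in Control 1 against 0.653 to 1.89 (0.618). Camk2b had 65.3 CPM in Control 3 against 44.3 to 52.6 (0.607).

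Adamts5, which fell, had 38.3 CPM in Control 5 against 22.4 to 28.8 in the other controls (0.599). Enpp2 had its lowest control value in Control 1, at 586 CPM against 680 to 743 (0.601). In Chd7iKO 1, Spry2 was highest, at 202 CPM against 150 to 161 (0.784), and Rfc4 was lowest, at 17.2 CPM against 25.6 to 27.5 (0.813). In the same library Kcnma1, which fell, was highest of its group, at 35.8 CPM against 23.8 to 24.9 (0.907), and Fgfr1 was highest, at 162 CPM against 131 to 139 (0.735).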

How the results depend on the processing

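The counts of 183 higher and 156 lower members fell to 68 and 71 without Chd7iKO 4 and 5 and to 82 and 76 at a threshold of 0.01. Leaving out each library in turn gave 112 to 209 higher and 103 to 165 lower members, lowest without Chd7iKO 5, and a share called of 19.5% to 33.3%. That share was 30.8%, and 12.6% without Chd7iKO 4 and 5, 14.4% and 40.1% at thresholds of 0.01 and 0.10, and 35.4% with DESeq2. Unlisted genes moved alongside, to 18.6% without Chd7iKO 5 and to 33.4% with DESeq2. The median log2 fold change was 0.008 to 0.020 with each library left out and 0.042 with library totals, where that of all genes was 0.033. The replicate numbers were not taken to pair the samples, since the labels mark nothing shared. The genes' deviations from their group mean log2 CPM correlated at -0.18 to 0.38 between same-numbered libraries. Differently numbered libraries were not set beside them, so that these values cannot exclude pairing. With the replicate number as a block over replicates 1 to 5, 34.2% of members were called (33.6% for the same libraries unblocked), and 167 of the higher and 136 of the lower calls remained. Under the block Nfasc changed sign, to 0.0305, as did Fgfr1 in the same libraries unblocked, to -0.0057. Erbb3 ran from -0.0449 to 0.0872 with each library left out and was -0.0056 without Controls 3 and 6. Chd7, which passed under no setting, ran from -0.0286 to 0.0897 with each library left out and was -0.0529 without Controls 3 and 6. The cause of these shifts was not tested. Of 72 called genes that are named, 53 kept their call whichever single library was left out. Genes of low counts limit what can be told, since the table starts at a mean of 0.618 CPM.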
